A study of Mus musculus with 6 samples.

Results

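The genes described here are 31 genes of the integrated stress response and the unfolded protein response, read from a table of 24340 genes in cultured mouse microglia. They were chosen by name from a fixed list, with earlier results of these data known. All 31 were found in the table and passed the filter on low values. They were divided into an ATF4 arm of 18 genes and an XBP1 and ATF6 arm of 13 genes. The study measured poly-A RNA in 6 libraries of primary microglia, the brain's resident macrophages, taken from newborn C57BL/6 mice and kept in medium with serum, L-glutamine and nonessential amino acids. In 3 libraries the cells had received 10 uM C13, which the submitters call an inhibitor of the kinase MOK, for 1 h and then 1 ug/ml LPS (lipopolysaccharide from the bacterial envelope) for 5 h. In the other 3 libraries the DMSO vehicle had taken the place of C13, with the same LPS exposure. Every library had therefore received LPS, so the values carry no information on the response to LPS itself.

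The integrated stress response begins with kinases that phosphorylate the translation factor eIF2, after which most protein synthesis slows while the transcription factor ATF4 is made in larger amounts and switches on genes of amino acid supply. The unfolded protein response adds sensors in the membrane of the endoplasmic reticulum (ER), the compartment in which secreted proteins fold. Of these sensors, IRE1 activates XBP1 by splicing its RNA, ATF6 is cut to release a transcription factor, and PERK is itself an eIF2 kinase. XBP1 and ATF6 drive ER chaperones and the ER-associated degradation (ERAD) machinery that removes misfolded proteins, and macrophages exposed to LPS load this system with secreted cytokines. FPKM per gene does not show XBP1 splicing, eIF2 phosphorylation or ATF4 protein, so the values below concern RNA levels only.

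The table held FPKM (fragments scaled to transcript length and to the library's total), and depth estimated from the smallest steps between low values was 11110000 to 11490000 fragments in the C13 libraries and 8930000 to 10800000 in the vehicle libraries. Across tested genes, the median correlation of vehicle replicate 2 with the other libraries was 0.969, against 0.984 to 0.989 for the rest. Its FPKM values summed to 634451, against 504674 to 534757 in the others. The values below that move most without this library are given without it as well. All 12 microglial markers had a mean of at least 1 FPKM, with a summed level of 2096 to 2231 FPKM with C13 and 2183 to 2904 FPKM with vehicle, although P2ry12 and Cx3cr1 had at most 3.21 FPKM in any library. RNA of other cells was present as well. The 6 fibroblast markers summed to 3733 to 4303 FPKM with C13 and 3967 to 4271 FPKM with vehicle. The 12 astrocyte markers, 10 of them at a mean of at least 1 FPKM, summed to 77.7 to 147 FPKM with C13 and 60.9 to 72.3 FPKM with vehicle, with the highest sum in C13 replicate 2. Of 6 neuronal markers 2 reached that level, as did 4 of 10 of the oligodendrocyte lineage, and Mog was at the table's lowest value in every library. Several members, such as Phgdh and Psat1, are also made by astrocytes and fibroblasts. In such bulk samples fewer cells of a type and less RNA per cell cannot be told apart. The labels call the samples biological replicates without naming separate cultures or litters, so any p-value rests on a spread among samples that may be partly technical.

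The comparison of C13 with vehicle asked whether the stress response genes of LPS-exposed microglia differed with the compound. No member passed the test over all genes (limma, lowest Benjamini-Hochberg adjusted p = 0.516, for Herpud1), and neither did any of the 11412 genes tested, so 0% were called in either direction. On the FPKM scale as deposited 25 of 31 members lay below 0, against 50.1% of all genes tested, and the median change was -0.13 in log2(FPKM + 1), against -0.00028 for all genes tested. With libraries rescaled to TPM the median was 0.0050, but that scaling moved the median of all genes to 0.13, relative to which the members' median was -0.12 and 24 of 31 lay lower. With quantile normalization the median was -0.02 and 19 of 31 lay below 0. On the deposited scale the microglial markers had a median change of -0.18 with 8 of 12 below 0, or -0.037 without vehicle replicate 2. The astrocyte markers had one of 0.39 with 9 of 10 tested above 0, or 0.42 without that library. Averaged over these astrocyte markers, C13 replicates 1, 2 and 3 deviated by 0.14, 1.16 and 0.35 from the vehicle mean. The fibroblast markers had a median change of 0.037 with 3 of 6 below 0. The part of these markers in the members' values was not tested.

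In 11 members, or 35.5%, all 3 C13 libraries lay below all 3 vehicle libraries, and in 0 members did they all lie above. Among all genes tested 9.78% were lower and 6.83% higher by the same criterion. The 11 were Atf4, Ddit3, Trib3, Ppp1r15a, Asns, Mthfd2 and Slc7a5 of the ATF4 arm and Xbp1, Hspa5, Pdia4 and Herpud1 of the XBP1 and ATF6 arm. At an unadjusted p under 0.05 limma put 5 members lower and 0 higher, against 4.77% lower and 2.57% higher of all genes. The numbers of members wholly lower and wholly higher were 8 and 0 once the dependence on length and GC content was removed, where 10.3% of all genes were lower and 9.17% higher. They were 5 and 1 with quantile normalization (7.97% and 5.77% of all genes) and 1 and 1 with TPM (3.36% and 16.3%). The 1 higher was Slc3a2 with either scaling, and the 1 lower with TPM was Ddit3. No member passed the adjusted threshold with any of these scalings, which called 0.114% of all genes higher and 0.123% lower after the removal, 0.0613% higher and 0% lower with quantile normalization, and 0.0175% higher and 0% lower with TPM. Without vehicle replicate 2 they were 12 and 1, where 20.5% of all genes lay lower and 15.3% higher. The unadjusted p was then under 0.05 for 7 members on the lower and 1 on the higher side, against 10.6% and 6.23% of all genes.

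**Figure D1:**
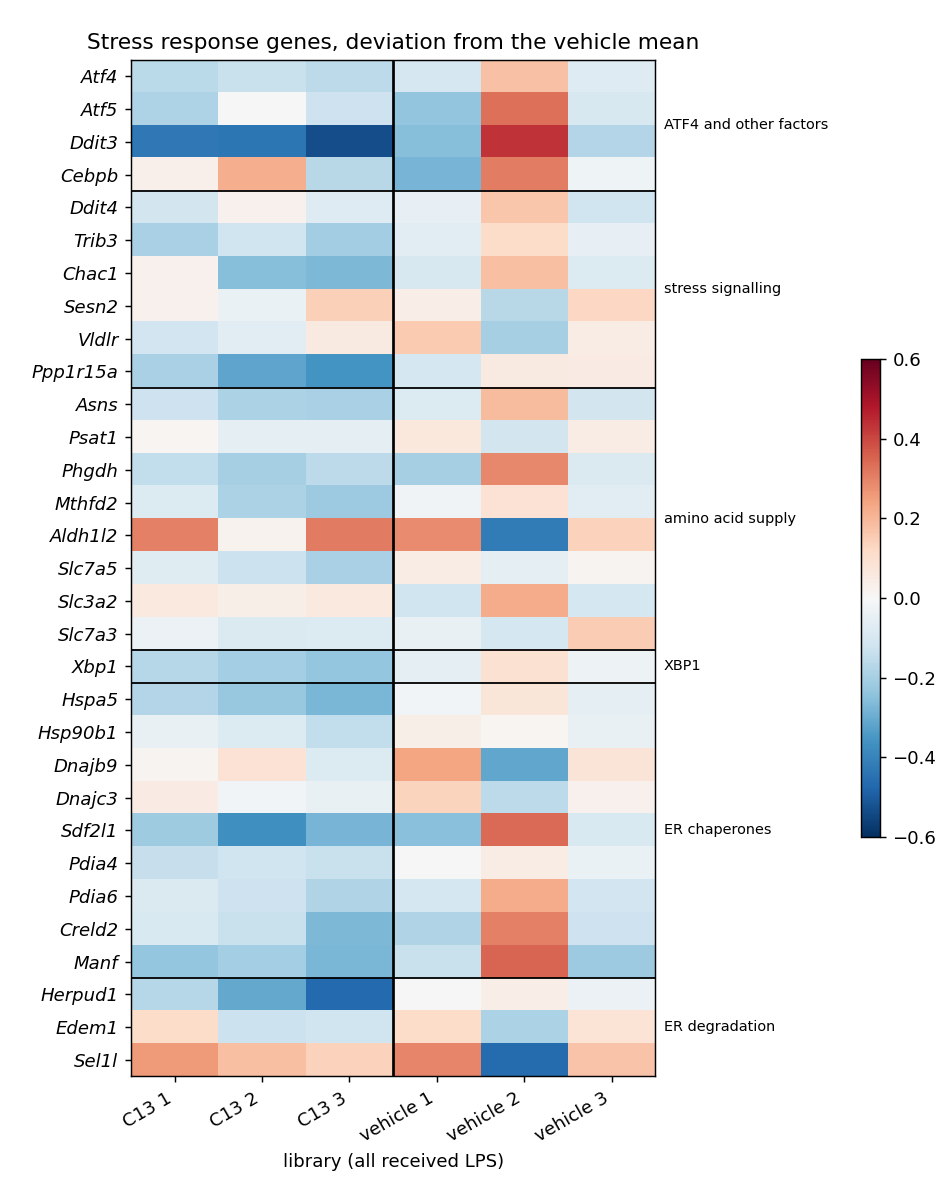
Each row is a member, grouped by role, and each column a library, with C13 replicates left of vehicle replicates. Colour is log2(FPKM + 1) minus the mean of the 3 vehicle libraries. Ddit3, Ppp1r15a, Xbp1, Hspa5 and Herpud1 are below the vehicle mean in every C13 library on the deposited scale, and vehicle replicate 2 is the most deeply coloured of the vehicle columns.

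The ATF4 arm begins with its transcription factors. Atf4, the factor translated when eIF2 is phosphorylated, had 215, 218 and 215 FPKM in the C13 libraries and 224, 271 and 228 FPKM in the vehicle libraries. The groups did not overlap, but the closest libraries differed little, and the change was -0.15 (SE 0.099, limma adjusted p = 0.816). It was -0.062 without vehicle replicate 2 and 0.0051 with quantile normalization. Ddit3, which encodes CHOP, a factor induced by ATF4 and linked to cell death in prolonged stress, had 38.5, 38.4 and 35.8 FPKM with C13 and 43.5, 70.9 and 46.0 FPKM with vehicle. Every C13 library lay below every vehicle library, and vehicle replicate 2 was far above the other vehicle libraries. Its change of -0.46 was the lowest among the members (SE 0.18, limma adjusted p = 0.63), and it was -0.25 (SE 0.057, adjusted p = 0.0958) without that library. Ddit3 lies beside the methionyl-tRNA synthetase gene Mars, with which it shared 1 locus in the table. The kit was a stranded one, but no source used here says whether strand was used in counting.

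The other factors did not separate the groups. Atf5, a relative of ATF4 whose RNA is likewise translated under stress, averaged 99.0 ± 6.6 FPKM with C13 and 108 ± 23.2 FPKM with vehicle, with a change of -0.10, or 0.062 without vehicle replicate 2. Cebpb, a partner of ATF4 that is also induced by LPS in macrophages, averaged 92.7 ± 12.4 FPKM with C13 and 91.6 ± 19.1 FPKM with vehicle (SD, n = 3 each). Its change was 0.028 with all libraries and 0.18 without vehicle replicate 2, and its groups overlapped in both.

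Members that act on stress signalling included the lowest p of the ATF4 arm. Ppp1r15a encodes GADD34, which directs a phosphatase to eIF2 and so ends the response. It had 27.1, 24.8 and 24.1 FPKM with C13 and 28.9, 32.3 and 32.3 FPKM with vehicle. The C13 libraries were all lower, and vehicle replicate 2 did not stand apart from vehicle replicate 3. The change was -0.29 (SE 0.089, limma adjusted p = 0.523) and -0.26 without vehicle replicate 2. Rescaled to TPM it was -0.16 with overlapping groups, where the median of all genes was 0.13. With quantile normalization the change was -0.24 with groups still apart. Trib3, a pseudokinase that restrains ATF4 and CHOP, had 14.9, 15.7 and 14.7 FPKM with C13 and 16.4, 18.6 and 16.5 FPKM with vehicle. Its groups did not overlap but lay close, and the change was -0.17 (SE 0.088, limma adjusted p = 0.752).

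The remaining signalling members overlapped between groups. Chac1, an enzyme that degrades glutathione, averaged 17.1 ± 2.16 FPKM with C13 and 19.3 ± 2.23 FPKM with vehicle. Sesn2, which restrains the growth kinase mTORC1 when amino acids are short, averaged 18.3 ± 1.28 and 17.8 ± 1.91 FPKM in the C13 and vehicle libraries. Ddit4, another mTORC1 inhibitor, averaged 21.6 ± 1.11 FPKM with C13 and 22.5 ± 2.48 FPKM with vehicle. The lipoprotein receptor gene Vldlr had the lowest level of all members, 3.40 ± 0.267 FPKM with C13 and 3.55 ± 0.56 FPKM with vehicle (SD, n = 3 each). The changes of these 4 genes lay between -0.17 and 0.043. Without vehicle replicate 2 they were -0.077 for Chac1, -0.04 for Sesn2, 0.03 for Ddit4 and -0.14 for Vldlr, so that the sign turned for Sesn2 and Ddit4.

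Among the genes of amino acid supply, Asns, Mthfd2 and Slc7a5 were lower in every C13 library than in any vehicle library. Asns, the asparagine synthetase gene, had 107, 103 and 102 FPKM with C13 and 111, 134 and 109 FPKM with vehicle. Only vehicle replicate 2 lay well above the C13 libraries, and the change was -0.17 (SE 0.10, limma adjusted p = 0.804), or -0.074 without that library. Mthfd2, a mitochondrial enzyme of one-carbon metabolism, had 65.1, 60.3 and 59.2 FPKM with C13 and 67.8, 73.1 and 65.9 FPKM with vehicle. The highest C13 library lay just below the lowest vehicle library, and the change was -0.16 (SE 0.083, limma adjusted p = 0.753).

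The amino acid transporter members took different directions. Slc7a5 encodes LAT1, which carries large neutral amino acids, and had 72.9, 70.2 and 67.0 FPKM with C13 and 79.3, 73.5 and 77.6 FPKM with vehicle. The C13 libraries were lower and vehicle replicate 2 was the lowest of its group, so the change was -0.13 with all libraries (SE 0.078, limma adjusted p = 0.801) and -0.16 without that library. Rescaled to TPM it was 0.0022, below the shift of all genes. Slc3a2, the heavy chain that LAT1 and the cystine transporter xCT both need, had 199, 196 and 199 FPKM with C13 and 176, 223 and 177 FPKM with vehicle. The C13 libraries lay close together, above vehicle replicates 1 and 3 and below vehicle replicate 2. Its change was 0.05 (SE 0.11) with all libraries and 0.16 without vehicle replicate 2 (SE 0.04, limma adjusted p = 0.106). Without that library Slc3a2 was the 1 member whose C13 libraries all lay above the vehicle libraries. With all libraries it was also wholly higher with TPM (0.19) and quantile normalization (0.20). Of all genes 16.3% were wholly higher with TPM, which moved their median to 0.13, and 5.77% with quantile normalization. The groups of Slc3a2 overlapped once the dependence on length and GC content was removed (0.11). The arginine transporter gene Slc7a3 averaged 14.1 ± 0.318 FPKM with C13 and 14.9 ± 1.49 FPKM with vehicle (SD, n = 3 each), with overlapping groups and a change of -0.068, or -0.12 without vehicle replicate 2.

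The serine pathway enzymes were abundant and close between groups. Phgdh, which opens the pathway, had 205, 198 and 204 FPKM with C13 and 197, 277 and 213 FPKM with vehicle. The groups overlapped, and the change was -0.17 with all libraries and -0.023 without vehicle replicate 2. Psat1, the next enzyme, averaged 112 ± 2.96 FPKM with C13 and 114.7 ± 7.51 FPKM with vehicle. Its change was -0.032, and it was -0.087 without vehicle replicate 2, when its C13 libraries all lay below the vehicle libraries. The mitochondrial folate enzyme gene Aldh1l2 averaged 15.2 ± 1.78 FPKM with C13 and 13.2 ± 3.42 FPKM with vehicle (SD, n = 3 each). Its change was 0.21, the highest among the members, and -0.00085 without vehicle replicate 2, in which it had 9.41 FPKM.

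**Figure D2:**
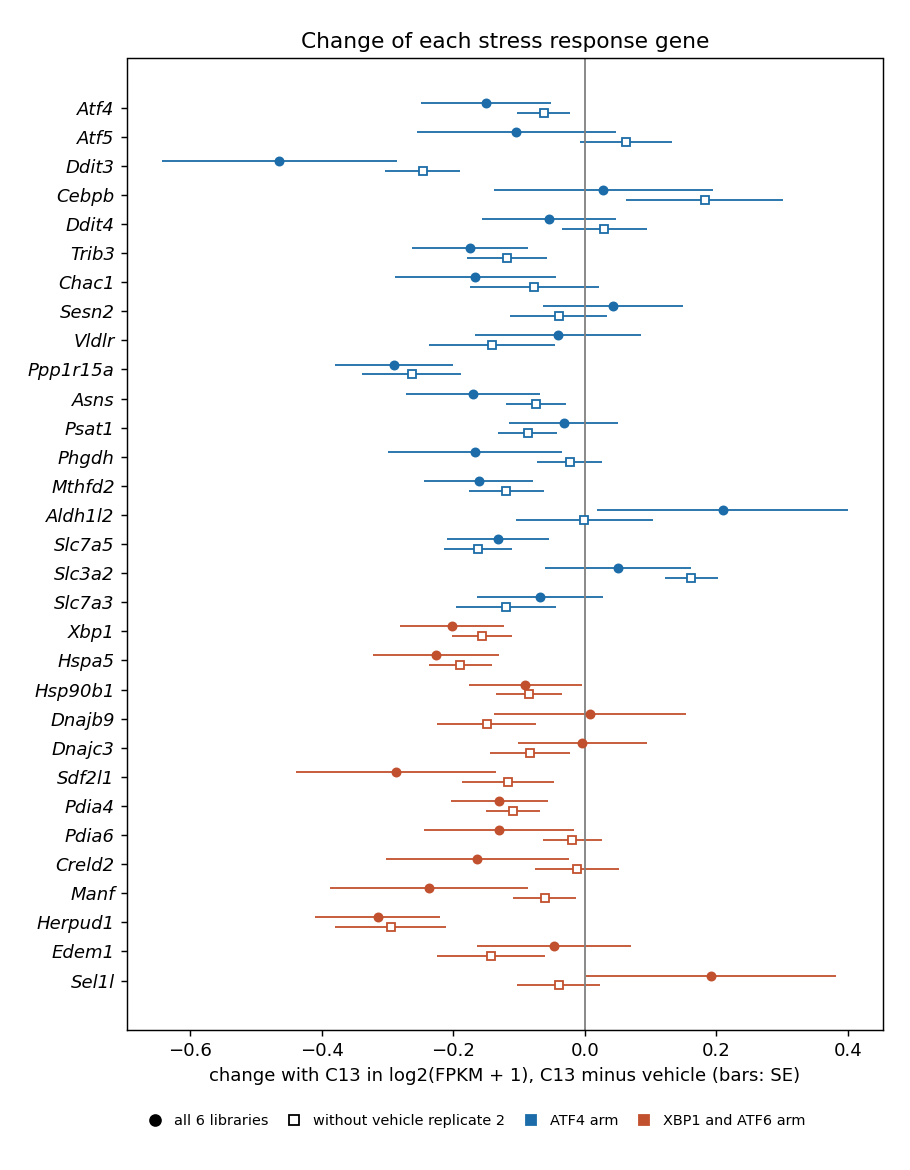
Each member's change in log2(FPKM + 1), C13 minus vehicle, is plotted with its SE, as filled circles for all 6 libraries and open squares without vehicle replicate 2. Blue marks the ATF4 arm and orange the XBP1 and ATF6 arm. On the deposited scale 25 of 31 circles and 27 of 31 squares lie left of 0, and Aldh1l2 and Sel1l are among those right of 0 only with all 6 libraries.

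Promoters of the ATF4 arm are known for a composite element bound by ATF4 with a C/EBP partner. RefSeq promoter windows on GRCm38.p6, running from 250 bases before to 50 bases after each start site, were matched for 27 of the 31 members, leaving Aldh1l2, Manf, Slc7a3 and Slc7a5 as names only. The letters TGATGNAA were sought on both strands, and they were present in 4 of 18 windows of the ATF4 arm (Asns, Chac1, Trib3 and Vldlr), in 1 of 12 of the other arm (Herpud1) and in 3.97% of all 32851 windows. The matches before the start site of 3 ATF4 arm genes are shown 5′ to 3′ with the element in capitals, on the gene's own strand, as examples of the element this arm is known for. They lie at chr6:7693210-7693247 (minus strand), chr2:119351034-119351071 (plus strand) and chr19:27216805-27216842 (plus strand).
Asns: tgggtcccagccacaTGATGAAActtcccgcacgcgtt
Chac1: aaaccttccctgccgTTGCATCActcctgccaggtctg
Vldlr: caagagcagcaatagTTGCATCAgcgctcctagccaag
Of these 3 genes only Asns was lower in every C13 library. A match is a description of letters and not of binding in these cells.

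In the XBP1 and ATF6 arm, Xbp1 itself had 73.0, 71.4 and 69.9 FPKM with C13 and 78.9, 87.8 and 80.5 FPKM with vehicle. All C13 libraries were lower, and the change was -0.20 (SE 0.079, limma adjusted p = 0.634). It was -0.16 without vehicle replicate 2 (SE 0.046, adjusted p = 0.152). These values count spliced and unspliced RNA together.

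Hspa5, the gene of the main ER chaperone BiP, was the most abundant member. It had 963, 928 and 897 FPKM with C13 and 1074, 1144 and 1044 FPKM with vehicle. The C13 libraries all lay below the vehicle libraries, and the change was -0.23 (SE 0.095, limma adjusted p = 0.673), or -0.19 without vehicle replicate 2 (SE 0.048, adjusted p = 0.112). With quantile normalization it was -0.012, and its C13 and vehicle libraries then overlapped. Pdia4, a protein disulfide isomerase that forms disulfide bonds in folding proteins, had 152, 154 and 153 FPKM with C13 and 167, 172 and 163 FPKM with vehicle. The C13 libraries were close together and lay below the vehicle libraries, with a change of -0.13 (SE 0.074, limma adjusted p = 0.792). Sdf2l1, a cofactor of BiP, had 50.7, 45.4 and 48.3 FPKM with C13 and 49.4, 74.8 and 55.2 FPKM with vehicle. Its groups overlapped, and the change of -0.29 was -0.12 without vehicle replicate 2.

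The other chaperones had overlapping groups. Hsp90b1, the ER form of HSP90, averaged 544 ± 19.6 FPKM with C13 and 579 ± 16.2 FPKM with vehicle. Pdia6, another disulfide isomerase, averaged 286 ± 9.29 FPKM with C13 and 315 ± 43.9 FPKM with vehicle. Manf, a secreted ER stress protein, averaged 105 ± 2.45 FPKM with C13 and 126 ± 28.2 FPKM with vehicle. Creld2, an ER stress protein that is likewise secreted, averaged 63.6 ± 4.11 FPKM with C13 and 72.1 ± 13.99 FPKM with vehicle. For Pdia6, Manf and Creld2 the vehicle spread came from replicate 2, with 366, 158 and 88.2 FPKM, and their changes of -0.13, -0.24 and -0.16 were -0.019, -0.061 and -0.012 without it. The BiP co-chaperone genes Dnajb9 and Dnajc3 averaged 27.8 ± 1.69 and 29.3 ± 1.03 FPKM with C13, against 27.9 ± 5.46 and 29.4 ± 3.09 FPKM with vehicle (SD, n = 3 each). Their changes of 0.0079 and -0.0035 were -0.15 and -0.083 without vehicle replicate 2.

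Of the ERAD genes, Herpud1, a membrane protein that helps assemble the degradation complex, had the smallest p of all members. It had 64.2, 58.2 and 52.1 FPKM with C13 and 72.1, 74.3 and 70.6 FPKM with vehicle. On the deposited scale the vehicle libraries lay close together and above every C13 library, while the C13 libraries were spread more widely. The change was -0.31 (SE 0.096, unadjusted p = 0.0126, limma adjusted p = 0.516), and it was -0.30 without vehicle replicate 2 (SE 0.084, adjusted p = 0.147). Rescaled to TPM it was -0.18, where the median of all genes was 0.13, and the groups overlapped. With quantile normalization it was -0.23 and they did not overlap. Sel1l, the partner of the ERAD ubiquitin ligase HRD1, had 37.2, 35.3 and 34.2 FPKM with C13 and 38.2, 22.2 and 34.95 FPKM with vehicle. Vehicle replicate 2 was far below the other 5 libraries, so the change was 0.19 with it and -0.039 without it. Edem1, which marks misfolded glycoproteins for removal, averaged 24.6 ± 2.44 FPKM with C13 and 25.5 ± 2.95 FPKM with vehicle (SD, n = 3 each), with overlapping groups and a change of -0.047, or -0.14 without vehicle replicate 2.

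**Figure D3:**
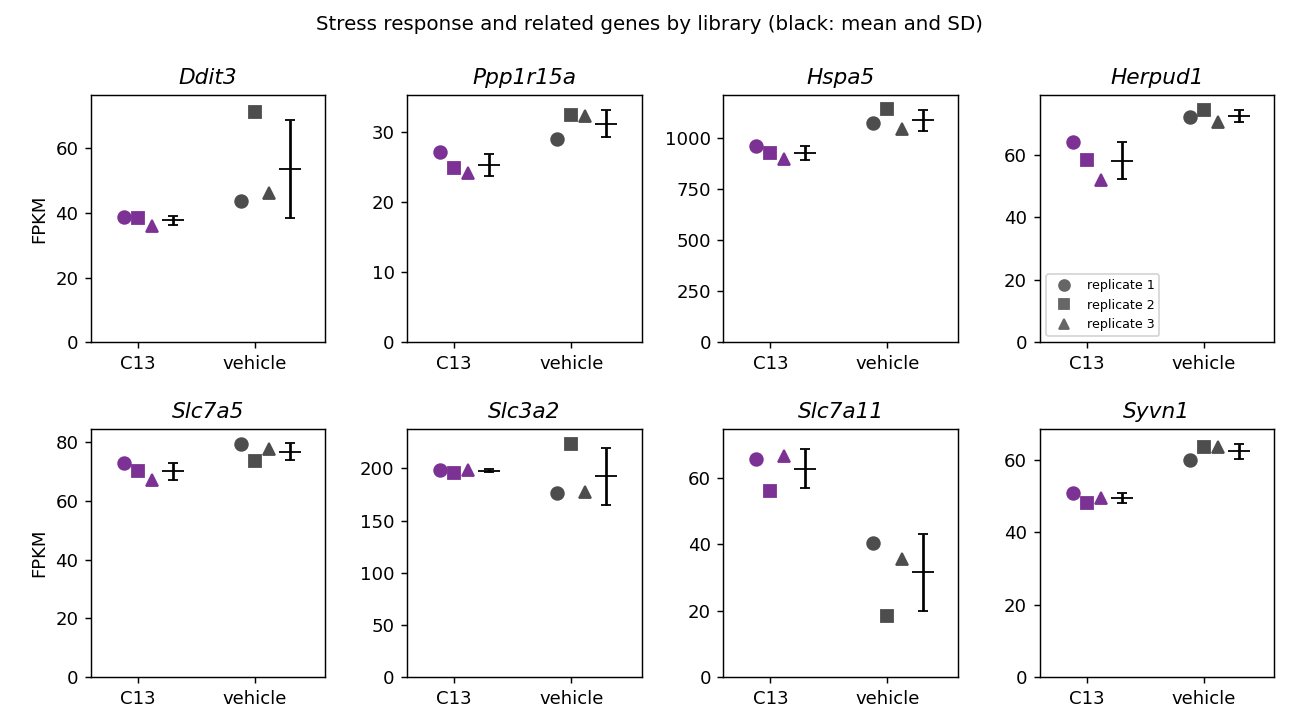
FPKM per library for 4 members in the upper row and for the transporter genes Slc7a5, Slc3a2 and Slc7a11 and the ERAD ligase gene Syvn1 in the lower row, on linear axes from 0, with C13 left of vehicle and the mean ± SD (n = 3) in black. Herpud1, Hspa5 and Ppp1r15a have vehicle libraries close together on the deposited scale, whereas the vehicle spread of Ddit3, Slc3a2 and Slc7a11 comes from replicate 2 (squares).

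Promoters of ER chaperone genes are known for the ER stress response element, called ERSE, bound by ATF6 with the factor NF-Y. Its letters, CCAAT and CCACG with 9 bases of any kind between them, were present on either strand in 5 of 12 windows of the XBP1 and ATF6 arm, in 0 of 18 of the ATF4 arm and in 0.119% of all windows. The related letters of ERSE-II, ATTGG and CCACG with 1 base of any kind between them, occurred in 1 window of the arm, that of Herpud1, and in 0.0365% of all windows. The UPR element core TGACGTG occurred in 1 window of the arm, that of Hspa5, and in 2.01% of all windows. None of these letters overlapped another match in the members. The ERSE and ERSE-II matches are shown 5′ to 3′ on the gene's strand, in capitals, and in Herpud1 the ATF4 and C/EBP composite element is in capitals before the ERSE-II. In the order given they lie at chr2:34772010-34772058 (plus), chr10:86705518-86705671 (minus), chr12:17266476-17266524 (plus), chr15:88819505-88819553 (plus), chr14:118937812-118937860 (plus) and chr8:94386302-94386402 (plus).
Hspa5: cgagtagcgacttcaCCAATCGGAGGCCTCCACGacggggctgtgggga
Hsp90b1: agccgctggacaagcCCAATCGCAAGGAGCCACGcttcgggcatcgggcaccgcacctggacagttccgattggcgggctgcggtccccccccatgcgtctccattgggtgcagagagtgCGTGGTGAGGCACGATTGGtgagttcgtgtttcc
Pdia6: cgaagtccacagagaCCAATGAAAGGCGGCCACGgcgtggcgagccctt
Creld2: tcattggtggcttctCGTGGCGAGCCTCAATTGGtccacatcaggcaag
Dnajc3: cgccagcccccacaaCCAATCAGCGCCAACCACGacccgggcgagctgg
Herpud1: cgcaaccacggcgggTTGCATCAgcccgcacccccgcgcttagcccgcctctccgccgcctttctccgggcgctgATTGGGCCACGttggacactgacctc
The changes of these 6 genes in log2(FPKM + 1) were -0.23, -0.091, -0.13, -0.16, -0.0035 and -0.31 in the same order. Without vehicle replicate 2 they were -0.19, -0.085, -0.019, -0.012, -0.083 and -0.30. Only Hspa5 and Herpud1 among them had groups that did not overlap.

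On the deposited scale the median change was -0.12 for the ATF4 arm and -0.13 for the XBP1 and ATF6 arm. With TPM the medians were 0.017 and 0.0050, where the median of all genes was 0.13. On the deposited scale the arms differed by 0.013, where the same difference varied between replicate libraries with an SD of 0.061. The difference was 0.064 once the dependence on length and GC content was removed, with medians of -0.046 for the ATF4 arm and -0.11 for the other, and -0.018 with quantile normalization. Leaving out 1 library at a time it ranged from 0.0074 to 0.050. The groups did not overlap on the lower side in 7 of 18 genes of the ATF4 arm and in 4 of 13 of the other arm, where 9.78% of all genes tested were lower. These counts were 3 and 5 once the dependence on length and GC content was removed (10.3% of all genes), 3 and 2 with quantile normalization (7.97%) and 1 and 0 with TPM (3.36%). Without vehicle replicate 2 the medians were -0.075 for the ATF4 arm and -0.11 for the XBP1 and ATF6 arm. All 13 genes of the XBP1 and ATF6 arm were then below 0, beside 14 of 18 of the ATF4 arm and 51.3% of all genes tested. Rescaled to TPM with all libraries, 6 of the 13 lay below 0 and 10 lay below the median of all genes, and with quantile normalization 8 of the 13 lay below 0. Averaged over the genes of the XBP1 and ATF6 arm, the C13 libraries deviated by -0.068, -0.13 and -0.18 from the mean of the vehicle group, and the vehicle libraries by 0.0042, 0.027 and -0.031. In the ATF4 arm the C13 libraries deviated by -0.077, -0.11 and -0.12 and the vehicle libraries by -0.059, 0.083 and -0.024. Each arm was lowest in the 3 C13 libraries on the deposited scale, with the closest pair of libraries nearer to each other in the ATF4 arm.

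**Figure D4:**
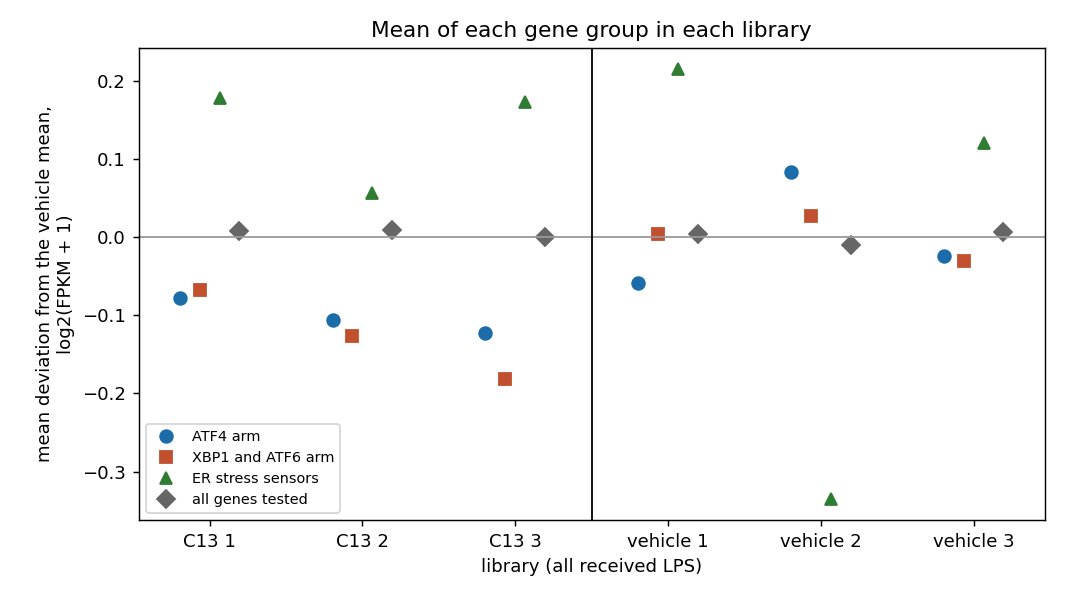
Mean deviation from the vehicle mean in log2(FPKM + 1) for each library, with C13 left of vehicle. Points are the ATF4 arm, the XBP1 and ATF6 arm, 5 genes labelled ER stress sensors and all genes tested. The 5 are Ern1, Atf6, Atf6b and the ATF6 protease genes Mbtps1 and Mbtps2. On the deposited scale both arms are below 0 in the C13 libraries, while all genes tested stay between -0.010 and 0.0092. The 5 genes labelled sensors depart most in vehicle replicate 2, at -0.33.

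Vehicle replicate 2 departed from the other vehicle libraries by an amount that followed transcript length. Across the 31 members its log2 difference from the mean of vehicle replicates 1 and 3 had a Pearson correlation of -0.83 with log2 transcript length, against -0.58 across 11318 tested genes. These are descriptions across genes that share the same libraries. Of the 22 members with transcripts under 3000 nt, 19 were higher in vehicle replicate 2, and of the 9 longer members 7 were lower in it. The change with C13 had a correlation of 0.64 with length over the members with all libraries and of -0.06 without vehicle replicate 2, against 0.26 and -0.17 over all genes tested. Sel1l and Aldh1l2, above 0 with all libraries and below 0 without that one, have annotated transcripts of 6300 and 6027 nt, and Ddit3 is the shortest member with 969 nt. Without it the median change was -0.082 in the shorter and -0.085 in the longer members, where it had been -0.16 and -0.041.

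**Figure D5:**
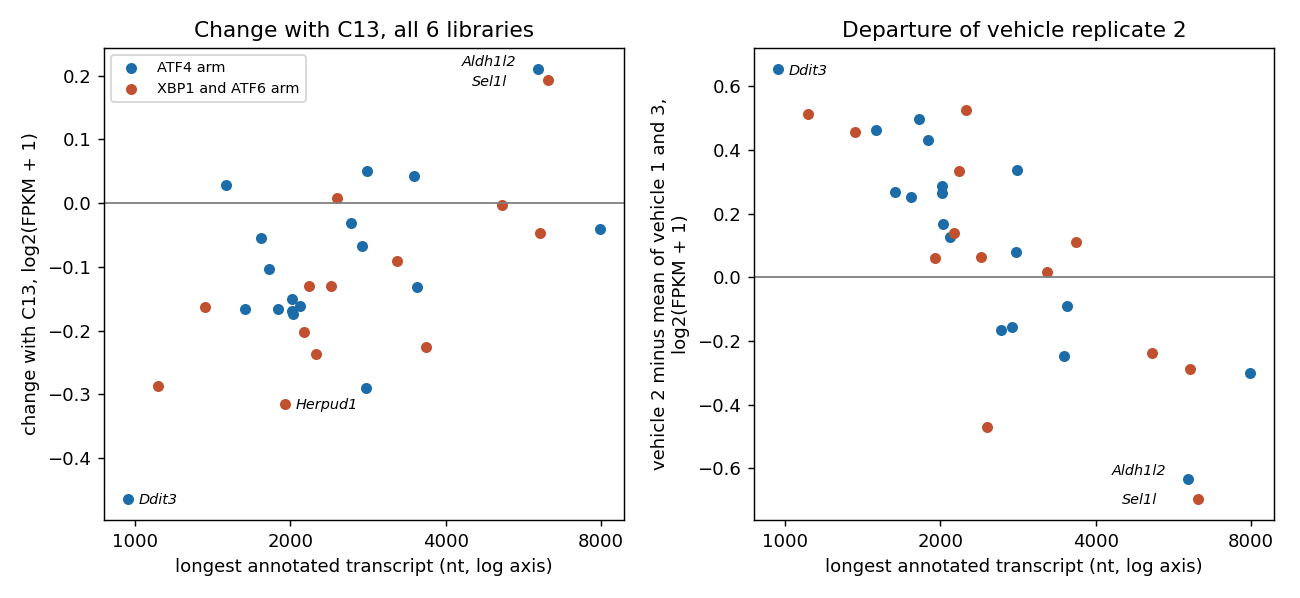
Each point is a member, placed by the length of its longest annotated transcript on a log axis. The left panel gives the change with C13 in log2(FPKM + 1) over all 6 libraries on the deposited scale, and the right panel vehicle replicate 2 minus the mean of vehicle replicates 1 and 3. Ddit3, the shortest, is lowest on the left and highest on the right, while Sel1l and Aldh1l2 are the highest on the left and the lowest on the right.

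Genes upstream of the members gave no call. All 4 eIF2 kinase genes, PERK among them, lay above 0 with all 6 libraries on the deposited scale. So did all 5 genes of a second list, Ern1, Atf6, Atf6b and the ATF6 protease genes Mbtps1 and Mbtps2. Without vehicle replicate 2 only 3 of 4 and 1 of 5 did so. The numbers were 3 and 3 once the dependence on length and GC content was removed, and 3 and 5 with quantile normalization. The PERK gene Eif2ak3 had 5.86, 5.48 and 4.70 FPKM with C13 and 4.86, 4.04 and 4.03 FPKM with vehicle. Its C13 libraries were mostly higher, with overlap between C13 replicate 3 and vehicle replicate 1, and the change was 0.26 (SE 0.12, limma adjusted p = 0.723). Eif2ak2, the kinase PKR that senses double-stranded RNA and is interferon-induced, had 105, 88.9 and 98.5 FPKM with C13 and 116, 70.9 and 111 FPKM with vehicle. Vehicle replicate 2 was the lowest of the 6, and the change was 0.00085, or -0.22 without it. The HRI gene Eif2ak1 and the GCN2 gene Eif2ak4, which sense haem and amino acid shortage, averaged 20.4 ± 1.1 and 3.23 ± 0.406 FPKM with C13, against 19.5 ± 0.921 and 3.00 ± 0.354 FPKM with vehicle (SD, n = 3 each), with overlapping groups. The IRE1 gene Ern1 had 5.94, 4.90 and 5.599 FPKM with C13 and 5.96, 2.00 and 5.51 FPKM with vehicle, so that only vehicle replicate 2 stood apart. Mbtps2, a protease that helps release ATF6, averaged 5.83 ± 0.632 FPKM with C13 and 4.95 ± 1.9 FPKM with vehicle. Atf6 averaged 9.38 ± 0.644 FPKM with C13 and 9.03 ± 2.25 FPKM with vehicle (SD, n = 3 each). Of the 9 genes of eIF2, its exchange factor and the constitutive phosphatase adaptor, 7 lay below 0 on the deposited scale. With TPM 2 lay below 0, but 7 lay below the median of all genes, which that scaling moved to 0.13. The smallest p were those of Eif2s2, with a change of -0.17, and Eif2b3, with -0.33 (limma adjusted p = 0.723 and 0.74). Eif2b3 had 31.1 FPKM in vehicle replicate 2, and its change was -0.17 without that library.

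Further targets of each arm were taken from lists of known targets. Of 21 other ATF4 targets 14 lay below 0 on the deposited scale (median change -0.044), against 10 with quantile normalization (median 0.023) and 7 with TPM (median 0.089). With TPM only 23.2% of all genes lay below 0, and 13 of the 21 targets lay below the median of all genes, 0.13. Without vehicle replicate 2 13 lay below 0 (median -0.017). Of these genes 0 passed with all libraries. The exception in size was Slc7a11, the xCT subunit that imports cystine for glutathione and a target of NRF2 as well as ATF4. It had 65.8, 56.1 and 66.6 FPKM with C13 and 40.4, 18.5 and 35.6 FPKM with vehicle. Every C13 library lay above every vehicle library, and vehicle replicate 2 was the lowest of all. The change was 1.04 (SE 0.27, limma adjusted p = 0.402), and without vehicle replicate 2 it rose by 0.71 (SE 0.091, adjusted p = 0.0235). With all libraries and the dependence on length and GC content removed, it rose by 0.88 (adjusted p = 0.0453). On the deposited scale Slc7a11 thus lay higher with C13 while Slc7a5, its fellow partner of Slc3a2, lay lower. With TPM, with quantile normalization and after the length and GC removal Slc7a11 stayed wholly higher, whereas the groups of Slc7a5 overlapped. Jdp2, a repressor of the AP-1 family, had 34.6, 33.5 and 30.5 FPKM with C13 and 40.3, 46.0 and 39.9 FPKM with vehicle, with groups that did not overlap and a change of -0.35 (SE 0.094, limma adjusted p = 0.448).

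Of 26 other XBP1 and ATF6 targets 25 were tested, since Derl3 was below the limit. On the deposited scale 17 lay below 0 with a median of -0.073, against 11 with quantile normalization (median 0.012) and 8 with TPM (median 0.062). With TPM 17 of the 25 lay below the median of all genes, 0.13. None of the 25 passed with all libraries. Syvn1, which encodes HRD1, the ERAD ubiquitin ligase that works with SEL1L and HERPUD1, had 50.9, 48.0 and 49.5 FPKM with C13 and 60.0, 63.6 and 63.4 FPKM with vehicle. The groups did not overlap, and vehicle replicate 2 lay close to vehicle replicate 3. The change was -0.33 (SE 0.075, limma adjusted p = 0.365), and without vehicle replicate 2 it fell by 0.31 (SE 0.052, adjusted p = 0.0445). The translocon gene Sec61a1, which threads new proteins into the ER, had 126, 122 and 122 FPKM with C13 and 137, 155 and 136 FPKM with vehicle, with groups that did not overlap and a change of -0.20 (SE 0.084, limma adjusted p = 0.673). Without vehicle replicate 2 21 of the 25 lay below 0, and among all 11412 genes limma then called 0.412% higher and 1.07% lower. No member of the 31 was among those calls, the lowest adjusted p being 0.0958 for Ddit3.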

How the data were processed

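The deposited table holds FPKM values made by the authors, with tracking names and loci, for 6 libraries. The submitters' processing notes name TopHat2 2.1.0, Cufflinks and mm10. No source used here gives the annotation, the Cufflinks version, the use of strand or any scaling between libraries. FPKM divides by transcript length and library total, so values can be read only relative to other genes of a library. The lowest value is 0.01, and 1 blank line was left out. Columns were matched to samples by the description, and groups come from the titles.

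Values were transformed to log2(FPKM + 1), which understates changes of low genes. The 11412 genes whose 6-library mean reached 1 FPKM entered limma 3.58.1 under R 4.3.3 (two-sided, intensity trend, no covariates), with Benjamini-Hochberg adjustment over all of them and a threshold of 0.05. List medians carry no test. The scripts were checked on simulated data with the means and spread of these genes. At the adjusted threshold they called 22% to 22.8% of true changes of 0.5 in size. Of true changes of 1 in size they called 68% to 73.6%. Depth was estimated from the first step above the floor in single-transcript genes of at least 1500 nt and covers counting error only. Every member rested on about 253 fragments or more in each library. Transcript lengths come from GENCODE release M21 on GRCm38, in which all 31 members were matched. Other rows share the locus of 5 members (Atf5, Ddit3, Ppp1r15a, Pdia4, Pdia6). The members and lists were chosen with earlier results of these data known. Values in every library are given for members whose groups do not overlap and for the 2 smallest p of each role. Of other pathway lists the 2 smallest p are named, with the eIF2 kinases, Ern1 and Atf6. Slc3a2, Phgdh and the genes named with single values beyond these were chosen after their values were seen. Alternatives changed the pseudocount, the filter, the scaling, library weights, the block and each library left out. Removal of a length and GC trend was added after seeing the data.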

Additional observations from a re-analysis of the deposited data

How the results depend on the processing

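No member passed under any of the 16 alternatives, so the count of members called stayed at 0 in each direction. Over all genes 0 passed as reported in either direction, but without vehicle replicate 2 there were 47 higher and 122 lower. The numbers were 11 and 1 with no filter on low values, 18 and 24 with array weights, and 13 and 14 after the length and GC trend was removed. TPM gave 2 higher and quantile normalization 7 higher, with 0 lower. Leaving out other libraries gave 0 to 1 higher and 0 lower. The ATF4 arm's median was 0.017 with TPM and -0.028 with quantile normalization, and that of the XBP1 and ATF6 arm was 0.0050 and -0.011. TPM also moved the median of all genes to 0.13, relative to which the medians of the ATF4 arm and the other arm were -0.11 and -0.12. Leaving out 1 library at a time the medians ranged from -0.14 to -0.075 for the ATF4 arm and from -0.19 to -0.11 for the other, and the ATF4 median was -0.046 with the length and GC trend removed. Of the 13 members followed singly, the sign turned for Slc7a5 (0.0022) and Pdia4 (0.0051) with TPM, although both lay below the median of all genes. The sign also turned for Atf4 (0.0051) with quantile normalization. For Sel1l it turned with array weights (-0.032), without vehicle replicate 2 (-0.039) and in the paired fit on 4 libraries (-0.072). Leaving out 1 library at a time Sel1l ranged from -0.039 to 0.34. The causes were not tested. The replicate numbers in the titles are not stated to mark a shared culture. Same-numbered libraries had deviations correlated at 0.089, 0.13 and 0.098, and every library correlated best with its own number, which is a hint from the data and not the design. With that replicate block 0 genes passed and the lowest member adjusted p was 0.65. The numbers in the descriptions pair C13 replicate 2 with vehicle replicate 1 and C13 replicate 3 with vehicle replicate 3 (2 pairs). Deviations in these pairs correlated at -0.10 and 0.098. That block called 5 genes higher and 3 lower, but it also left out C13 replicate 1 and vehicle replicate 2. Vldlr, the member with the lowest FPKM, also had the fewest estimated fragments, 253 in its lowest library, beside 261 for Chac1.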

Other observations

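Stmn2, a gene known from growing neurons, had 81.6, 71.7 and 71.0 FPKM in the C13 libraries and 76.0, 98.03 and 76.0 FPKM in the vehicle libraries. Of the other neuronal markers, Tubb3 had 9.42 to 14.3 FPKM and Map2 had 0.391 to 0.748 FPKM across the libraries. Snap25, Syt1 and Rbfox3, which mark neurons more broadly, had at most 0.065 FPKM in any library. Gdf15, a secreted cytokine of the stress response, had 6.51, 7.21 and 8.42 FPKM with C13 and 2.83, 7.197 and 4.88 FPKM with vehicle. Only vehicle replicate 2 reached the C13 range, and the change was 0.55 with all libraries (SE 0.26, limma adjusted p = 0.731) and 0.82 without that library (SE 0.19, adjusted p = 0.0922). Gdf15, Stmn2 and Nupr1 were chosen after their values were seen. Nupr1, another stress-induced gene, had 187 to 213 FPKM with C13 and 194, 356 and 229 FPKM with vehicle, so that vehicle replicate 2 was far above the other 5 libraries.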
